A study of Huso dauricus x Acipenser schrenckii with 16 samples.

Results

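GDF9 (growth/differentiation factor 9) and BMP15 (bone morphogenetic protein 15) are a pair of growth factors made by the oocyte. They were followed here as 2 of the 41685 rows of a gene table of sturgeon ovary, LOC117431139 for GDF9 and LOC117430234 for BMP15, which were chosen by name and protein description. A second row carried the same description for each gene, LOC117412788 for GDF9 and LOC117411787 for BMP15. These other rows are described beside the pair. Reads from near-identical copies can be split between such rows, so the level of a single row is uncertain.

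The ovaries came from adult females of a farmed cross of Huso dauricus females with Acipenser schrenckii males, kept under normal breeding conditions. One population was ranked as having a high caviar yield and another a low one, caviar being the mass of ripe eggs, with 8 females labelled in each. All fish of both groups were the same cross, and no agent or genetic change was applied. Each yield group was a separate population, so yield and population cannot be told apart. Poly(A) RNA of whole ovary was sequenced, with 1 library per female according to the labels.

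GDF9 and BMP15 belong to the transforming growth factor beta family. Both are secreted by the oocyte as precursors, are cut by proprotein convertases, and act on the surrounding granulosa cells through a type 2 receptor, BMPR2, paired with a type 1 receptor. In mammals GDF9 signals through TGFBR1 to SMAD2 and SMAD3, and BMP15 through BMPR1B to SMAD1, SMAD5 and SMAD9. In mammals both take part in follicle growth, and in zebrafish the loss of bmp15 stops follicles before yolk uptake.

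Totals ran from 37362125 to 60873931 counts per library. Among the 8 high-yield libraries there were 4 pairs of near-identical profiles (1 with 5, 2 with 6, 3 with 7, 4 with 8), with Spearman's rho between 0.987 and 0.993, against at most 0.969 for the other 116 pairs of libraries. Each pair was counted as 1 sample, which leaves 4 high-yield and 8 low-yield samples. Oocyte markers ranged widely in level, with a median over samples of 166.5 FPKM (fragments per kilobase, a level per transcript length and sequencing depth) for the maternal-effect gene ZAR1 (LOC117406578), 32.1 FPKM for the germ cell gene DAZL and 11.95 FPKM for the germ cell helicase DDX4. The egg envelope gene ZP3 (LOC131736991) had a median of 9209 FPKM and the homeobox gene NOBOX 1.16 FPKM. The oocyte marker FIGLA matched no row. Low-yield 2 and 5 stood apart, with summed fibroblast markers of 665 and 1465 CPM (counts scaled to a common library size by trimmed mean of M values) against 45.9 to 141 CPM in the other 10 samples. In whole-tissue RNA, fewer cells of a type and less RNA per cell cannot be told apart.

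GDF9 was a transcript of moderate level. In the high-yield libraries in order from 1 to 8, LOC117431139 stood at 8.18, 11.5, 14.5, 25.8, 9.01, 9.92, 16.1 and 25.2 CPM. In low-yield 1 to 8 it stood at 16.7, 5.84, 11.9, 11.6, 5.84, 13.2, 13.8 and 22.8 CPM. High-yield 4 and 8 and low-yield 8 were highest, low-yield 2 and 5 were lowest, and the groups overlapped over most of their range. High-yield 1, 2, 5 and 6 held between 8.18 and 11.5 CPM, and high-yield 3, 4, 7 and 8 between 14.5 and 25.8 CPM. The means were 15.02 ± 7.53 CPM in high yield (SD, n = 4) and 12.7 ± 5.54 CPM in low yield (SD, n = 8).

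BMP15 was the more abundant of the pair. In high-yield 1 to 8, LOC117430234 stood at 127.7, 139.7, 196, 164.7, 123.1, 135.9, 213.5 and 160.3 CPM. The low-yield values, in the same order, were 139.5, 75.7, 135.7, 167.2, 62.4, 157.6, 151.1 and 160.9 CPM. High-yield 3 and 7 were highest. Low-yield 2 and 5 were again lowest, below all other libraries, and the other 6 low-yield libraries lay within the high-yield range. The means were 158 ± 35.0 CPM in high yield (SD, n = 4) and 131 ± 40.0 CPM in low yield (SD, n = 8).

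**Figure D1:**
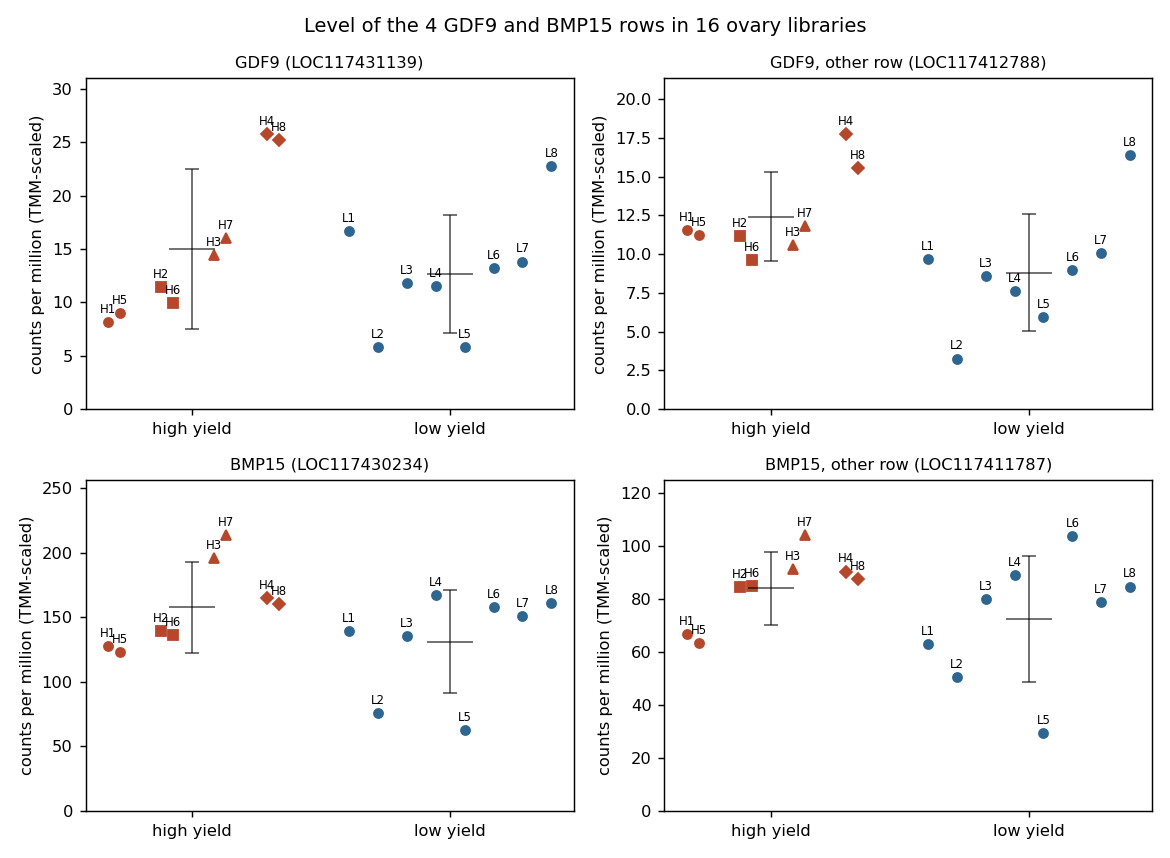
Level of the GDF9 and BMP15 rows in each ovary library, in CPM on a linear axis from 0; red points are high yield, with 1 marker shape per near-identical pair, and blue points are low yield. Bars give the mean and SD over 4 high-yield samples and 8 low-yield libraries. Low-yield 2 and 5 have the lowest BMP15 at 75.7 and 62.4 CPM, while GDF9 is highest in high-yield 4 and 8 at 25.8 and 25.2 CPM.

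Neither gene passed the test between the yield groups. GDF9 had a log2 fold change, high over low yield, of 0.27 (SE 0.38, 95% interval -0.54 to 1.09, adjusted p = 0.822, edgeR quasi-likelihood test with Benjamini-Hochberg adjustment). For BMP15 the log2 fold change was 0.30 (SE 0.28, 95% interval -0.29 to 0.89, adjusted p = 0.732, same edgeR test). As linear folds, these intervals ran from 0.686 to 2.13 for GDF9 and from 0.815 to 1.85 for BMP15. Of the pair, 0 of 2 rows were called, and the background was 0% of 30009 tested genes, with 2557 genes (8.52%) at an unadjusted p under 0.05. DESeq2 called 117 of 32055 genes (0.365%), and edgeR on 16 separate libraries called 16 of 27653 (0.0579%), neither gene of the pair among them.

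Both differences rested on few samples. Without high-yield 4 and 8, the log2 fold change of GDF9 was -0.10. When low-yield 2 and 5 were left out, it was 0.03 for GDF9 and 0.08 for BMP15. Summed markers of other cell types were higher in these 2 libraries, as given below for each list, and their part in the result was not tested. Oocyte rows outside the egg envelope genes had a mean log2 CPM of 6.02 and 6.06 in low-yield 2 and 5, against 5.87 to 6.20 in the other samples. Over all 184 oocyte rows, most of them envelope genes, these 2 libraries were the extremes. Low-yield 2 had the lowest mean, 6.09, and low-yield 5 the highest, 7.92. The part of oocyte content in the result was not tested.

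The other row of each gene was set beside it. LOC117412788, the other GDF9 row, held 12.4 ± 2.86 CPM in high yield (SD, n = 4) and 8.81 ± 3.79 CPM in low yield (SD, n = 8). This gave a log2 fold change of 0.53 (SE 0.34, adjusted p = 0.647, edgeR). For LOC117411787, the other BMP15 row, the means were 84.1 ± 13.8 CPM in high yield (SD, n = 4) and 72.4 ± 23.7 CPM in low yield (SD, n = 8), a log2 fold change of 0.25 (SE 0.28, adjusted p = 0.771, edgeR). Like the pair itself, neither of the other rows passed. With the counts of both rows of a gene summed, a choice made after the data were seen, the log2 fold change was 0.38 for GDF9 and 0.28 for BMP15.

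The level of each gene within near-identical libraries was set beside its spread over samples. The SD within pairs was 0.10 for GDF9 and 0.05 for BMP15 on the log2 FPKM scale, against an SD over the 12 samples of 0.63 and 0.49. The pairs were picked for near-identical profiles, so a small spread within them follows from that choice. Within high yield the SD of log2 FPKM was 0.66 for GDF9 and 0.15 for BMP15, and within low yield it was 0.65 and 0.57. The small value for BMP15 depends on the scaling. In log2 CPM, BMP15 ran from 6.99 in high-yield 1 and 5 to 7.70 in high-yield 3 and 7. Set against genes of like abundance (mean within 0.5 log2 CPM), the SD of log2 CPM of GDF9 exceeded that of 72.3% of 3996 genes. That of BMP15 exceeded 60.7% of 909 genes.

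Per length, BMP15 outranked GDF9 in every library. Over the 12 samples the mean of BMP15 was 29.3 FPKM, a level that 8.93% of all rows exceeded. For GDF9 the mean was 3.92 FPKM, exceeded by 33.0% of rows. The other BMP15 row averaged 8.22 FPKM and the other GDF9 row 2.11 FPKM. This order of the 4 rows held in every library except high-yield 1, where GDF9 stood at 2.69 FPKM and its other row at 2.76 FPKM.

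The ratio of BMP15 to GDF9 does not depend on how a library is scaled. In high-yield 1 to 8, BMP15 FPKM over GDF9 FPKM was 11.2, 8.72, 9.71, 4.575, 9.81, 9.83, 9.53 and 4.565. In low-yield 1 to 8 the ratio was 6.004, 9.31, 8.21, 10.4, 7.67, 8.55, 7.84 and 5.07. High-yield 4 and 8 had the lowest ratio, followed by low-yield 8 and low-yield 1, and the groups overlapped. Low-yield 2 and 5, which held the least of both transcripts, had ratios inside the range of the others. The mean ratio was 8.47 ± 2.65 in high yield (SD, n = 4) and 7.88 ± 1.71 in low yield (SD, n = 8).

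On the log2 scale, GDF9 over BMP15 was -3.01 ± 0.55 in high yield (SD, n = 4) and -2.95 ± 0.34 in low yield (SD, n = 8). The difference of -0.07 was smaller than either SD (two-sided exact permutation test over all splits of 4 against 8, p = 0.768, 0.796 after Benjamini-Hochberg adjustment over 3 tests). With both rows of each gene summed it was 0.07. Without high-yield 4 and 8 it was -0.34 (exact permutation p = 0.0727).

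**Figure D2:**
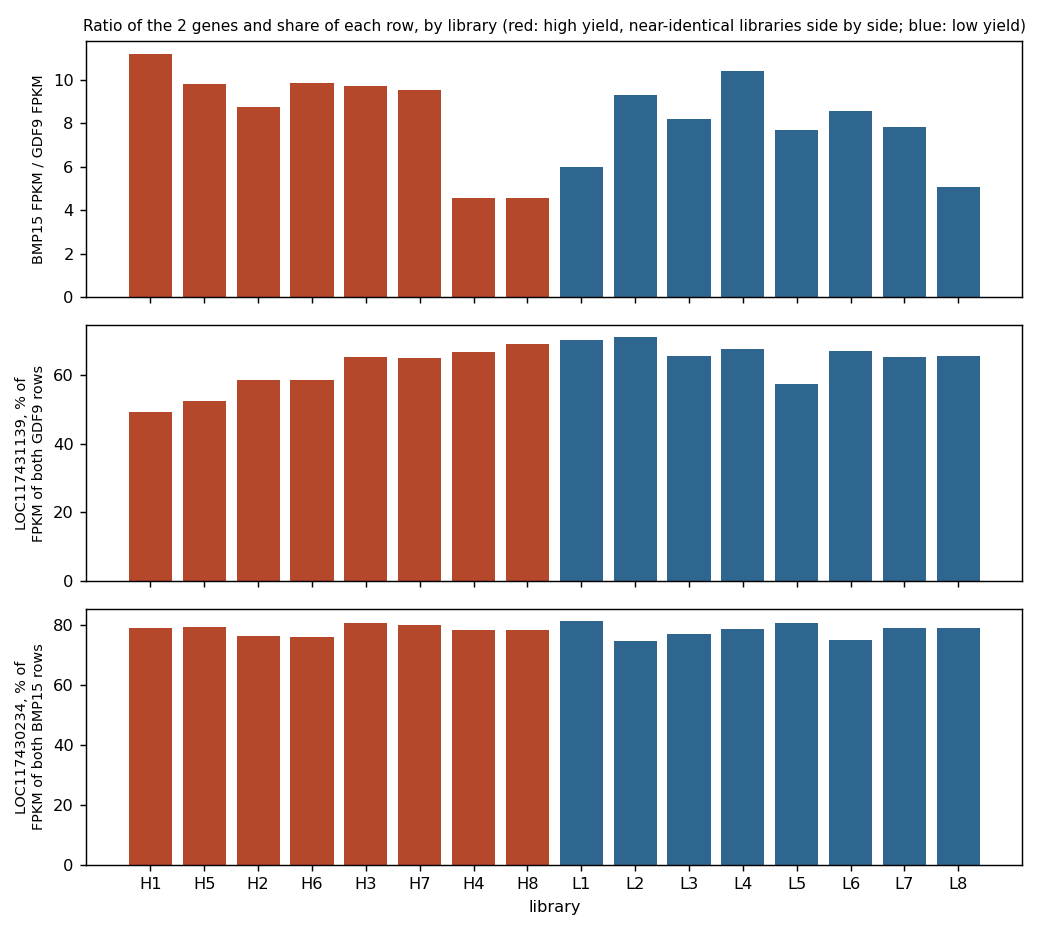
Bars show, for each library, BMP15 FPKM over GDF9 FPKM (top), the percent of the FPKM of both GDF9 rows that came from LOC117431139 (middle) and the percent of the FPKM of both BMP15 rows that came from LOC117430234 (bottom), with red for high yield and blue for low yield. High-yield 4 and 8 have the lowest ratio, at 4.575 and 4.565, and the BMP15 share stays between 74.7% and 81.3% in every library.

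The balance between the rows of one gene spanned a wider range for GDF9 than for BMP15. LOC117431139 gave 60.7 ± 7.56% of GDF9 FPKM in high yield (SD, n = 4) and 66.3 ± 4.13% in low yield (SD, n = 8). Its share was lowest in high-yield 1 and 5, at 49.4% and 52.55%, and highest in low-yield 2, at 71.1%. The difference of -5.64 percentage points did not pass (exact permutation test, p = 0.158, 0.473 after Benjamini-Hochberg adjustment). LOC117430234 gave 78.5 ± 1.80% of BMP15 FPKM in high yield (SD, n = 4) and 78.2 ± 2.45% in low yield (SD, n = 8), with p = 0.796 in the exact permutation test.

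GDF9 and BMP15 varied together over the 12 samples, less closely when low-yield 2 and 5 were both left out. Pearson's r of log2 CPM was 0.815 (permutation p = 0.00184, 0.00368 after Benjamini-Hochberg adjustment over the 6 pairs of rows). Spearman's rho was 0.685 (permutation p = 0.0174, adjusted 0.0396). Without low-yield 2 and 5, the samples farthest from the median of GDF9, r fell to 0.455 (permutation p = 0.187, 10 samples). Leaving out the extremes of GDF9 tends to lower r in itself, so this value cannot show that the relation is absent. With 1 of them left out, r was 0.743 without low-yield 2 and 0.744 without low-yield 5. Among the low-yield libraries alone r was 0.882 (exact permutation p = 0.0166, 8 libraries, low-yield 2 and 5 included). The 4 high-yield samples were too few for a value of their own.

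**Figure D3:**
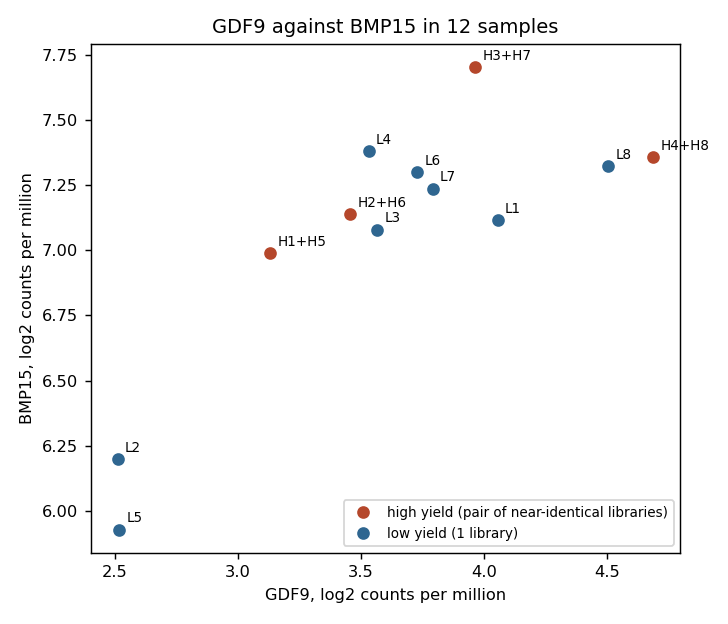
GDF9 (x axis) against BMP15 (y axis), both in log2 CPM; each red point is a pair of near-identical high-yield libraries and each blue point a low-yield library. Low-yield 2 and 5 lie apart at the lower left, at GDF9 values of 2.51 and 2.52 and BMP15 values of 6.20 and 5.93, and r is 0.815 with them and 0.455 without them.

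Rows of the same gene also varied together. GDF9 and its other row had r = 0.854 (permutation p = 4e-04, adjusted 0.0012, rho = 0.671 with p = 0.0198), and r = 0.707 without low-yield 2 and 5 (permutation p = 0.0218, 10 samples). BMP15 and its other row had r = 0.937 (permutation p = 5e-05, adjusted 3e-04, rho = 0.853 with p = 0.00082), and r = 0.731 without the same libraries (permutation p = 0.0156, 10 samples). Shared reads between copies would also raise these values, and their part was not tested.

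Many other genes followed the pair as closely as the partners followed each other. Among 24086 tested genes with a mean of at least 1 CPM, BMP15 ranked 795th by r with GDF9, and GDF9 ranked 1320th by r with BMP15. The other GDF9 row ranked 356th for GDF9, and the other BMP15 row 58th for BMP15. Over the 10 samples without low-yield 2 and 5, BMP15 ranked 4200th for GDF9 and GDF9 3789th for BMP15. At r of 0.9 or more there were 56 genes for GDF9 and 287 for BMP15 over 12 samples, and 14 and 2 over the 10. At r of -0.9 or less there were 13 and 87 genes over 12 samples, and 15 and 8 over the 10.

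The genes named as most like GDF9 in pattern were taken from those with the largest r, and they are extremes of a long list, so no test is given. The Nudix hydrolase gene nudt6 had r = 0.968 over 12 samples and 0.936 over 10 samples, with 2.87 CPM in low-yield 5 and 13.7 CPM in low-yield 8 as its extremes. The others were reticulocalbin-2 (LOC117427988, r = 0.947), the homeobox gene SIX4 (LOC117431949, r = 0.945), the histone acetyltransferase type B catalytic subunit (LOC117408737, r = 0.945) and mitochondrial ribosomal protein gene mrps18a (r = 0.945). These 5 had r between 0.883 and 0.936 over the 10 samples.

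At the opposite end of the list for GDF9 stood ankyrin repeat gene ANKRD12 (LOC117400628, r = -0.955), the Wnt mediator DVL-1 (LOC117431902, r = -0.94), a MAP4K2-like kinase (LOC117967868, r = -0.932) and taperin (LOC117396687, r = -0.93). Their r over 10 samples ran from -0.843 for the kinase to -0.927 for DVL-1. Taperin reached 16.4 CPM in low-yield 5 and was at 1.203 CPM in high-yield 4 and 8.

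BMP15 was followed most closely by LOC117973821, described as the oocyte-specific histone RNA stem-loop-binding protein 2, which in the frog binds stored histone mRNA. Its r was 0.976 over 12 samples and 0.873 over 10. This row held 249 ± 102 CPM in high yield (SD, n = 4) and 200 ± 84.3 CPM in low yield (SD, n = 8). It was lowest in low-yield 5, at 61.2 CPM, and highest in high-yield 3 and 7, at 361 CPM. Next came tbc1d22a (r = 0.973), the ubiquitin ligase gene RNF217 (LOC117411001, r = 0.966), and a row with the symbol ntan1 that is described as RRN3 (r = 0.964). The spindle gene ska3 (r = 0.962) and a CDC23-like subunit row of the anaphase-promoting complex (LOC117431124, r = 0.961) completed the 6. Over 10 samples their r lay lower, between 0.666 for ska3 and 0.873.

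The 4 rows that ran most against BMP15 were highest in low-yield 5. A CASP-like row (LOC117430557) had r = -0.979, the transcription factor ARNT2 (LOC117429480) -0.966, integrin alpha-8 (LOC117435244) -0.962 and adenylate cyclase 9 (LOC117431652) -0.962. Integrin alpha-8 reached 8.003 CPM in low-yield 5 and was at 0.332 CPM in high-yield 3 and 7. Over 10 samples these r values lay between -0.738 and -0.858.

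**Figure D4:**
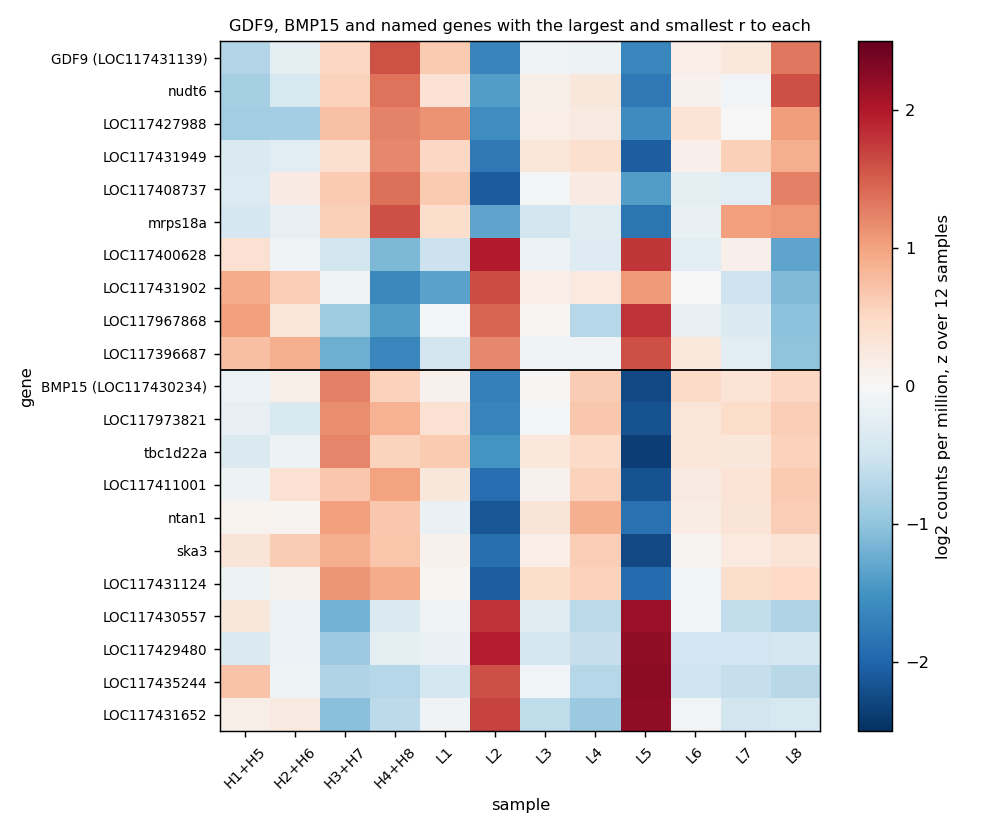
Heat map of GDF9 (top block) and BMP15 (bottom block), each with named genes of the largest r (5 for GDF9, 6 for BMP15) and the 4 of smallest r; columns are the 12 samples and colour is the z-score of log2 CPM over samples (red high, blue low). Low-yield 2 and 5 are the strongest columns of the BMP15 block, while in the GDF9 block high-yield 4 and 8 and low-yield 8 also stand out.

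Measured against other transcripts of the oocyte, neither gene passed either. The level was taken as log2 CPM of the gene minus the mean over 184 oocyte rows, most of them egg envelope (zona pellucida) genes. GDF9 was -2.99 ± 0.96 in high yield (SD, n = 4) and -3.295 ± 0.97 in low yield (SD, n = 8; exact permutation p = 0.691). BMP15 was 0.50 ± 0.47 and 0.13 ± 0.92 (n = 4 and 8; exact permutation p = 0.501). The BMP15 difference of 0.38 was 0.0748 without low-yield 5 and 0.0212 without low-yield 2 and 5, and the GDF9 difference of 0.31 was -0.0896 without both. Low-yield 5 was lowest for both, at -5.40 for GDF9 and -1.99 for BMP15, and its summed oocyte list was the highest of all samples. The summed oocyte list was lowest in low-yield 2. Relative to the 36 oocyte rows outside the envelope genes, low-yield 5 stood at -3.54 for GDF9 and -0.13 for BMP15.

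The enzymes that can cut the precursors were present in every sample. FURIN, the most widely used of these proprotein convertases, held 150.2 ± 43.6 CPM in high yield (SD, n = 4) and 154 ± 72.4 CPM in low yield (SD, n = 8), a log2 fold change of 0.00 (SE 0.34). The edgeR test called 0 of 22 tested rows of binding proteins and convertases, of which 15 were positive and 7 negative in sign, and the median log2 fold change was 0.14. At an unadjusted p under 0.05 there was 1 row, and the fit of 16 separate libraries called 0. Over all 30009 tested genes 14583 were positive and 15426 negative, with a median of -0.02. The convertase row with the smallest p was PCSK6 (LOC117428191), at 30.3 ± 8.33 CPM in high yield (SD, n = 4) and 41.8 ± 6.23 CPM in low yield (SD, n = 8; adjusted p = 0.583, edgeR). The second PCSK6 row (LOC117429564) had a log2 fold change of -0.31 and PCSK5 (LOC117421292) of 0.64. Follistatin, a secreted antagonist of the family, stayed at or under 1.7 CPM and was removed by the filter on low counts.

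Receptor transcripts were low in whole ovary. BMPR2 (LOC117407627), the type 2 receptor, held 5.07 ± 1.76 CPM in high yield (SD, n = 4) and 6.17 ± 3.53 CPM in low yield (SD, n = 8), with its highest value of 12.6 CPM in low-yield 2. TGFBR1 (LOC117394350) held 7.11 ± 0.924 CPM (n = 4) and 6.35 ± 1.17 CPM (n = 8). BMPR1B (LOC117408649), the type 1 receptor of BMP15 in mammals, stood at 0.131, 0.112, 1.095 and 0.629 CPM in the high-yield samples. In low-yield 1 to 8 it stood at 3.37, 3.99, 2.78, 4.41, 0.626, 1.25, 2.83 and 1.996 CPM. Only low-yield 5 lay inside the high-yield range. Its log2 fold change of -2.34 (SE 0.76) had an unadjusted p of 0.0083 and did not pass after adjustment (adjusted p = 0.574, edgeR), and 8.52% of all genes reached an unadjusted p under 0.05.

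SMAD proteins carry the signal inside the cell, and the SMAD rows ranged widely in level. SMAD5 (LOC117431188) held 62.3 ± 11.9 CPM in high yield (SD, n = 4) and 64.4 ± 7.45 CPM in low yield (SD, n = 8). SMAD1 (LOC117421397) had a log2 fold change of 0.21, SMAD2 (LOC117421319) of 0.14 and SMAD3 (smad3a), which held 4.36 ± 2.71 and 4.78 ± 2.19 CPM (SD, n = 4 and 8), of -0.10. Of the 35 tested receptor and SMAD rows 18 were positive and 17 negative in sign, the median log2 fold change was 0.00, and edgeR called 0 (2 rows at an unadjusted p under 0.05, 0 called with 16 separate libraries). The other rows with the smallest p, ACVR1 (LOC131709250) and the inhibitory SMAD7 (LOC117409348), had log2 fold changes of -2.84 and -2.16 (adjusted p = 0.579 and 0.599, edgeR). Both were highest in low-yield 2 and 5, at 4.02 and 10.2 CPM for ACVR1 and 9.03 and 4.48 CPM for SMAD7.

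Genes known in mammals to respond to the pair in granulosa cells were mostly low. Of 39 matched rows 23 could be tested, 8 of them positive and 15 negative in sign. Their median log2 fold change was -0.57, and edgeR called 0 (1 row at an unadjusted p under 0.05, 0 called with 16 separate libraries). Without low-yield 2 and 5, 13 of 21 tested rows were positive and 8 negative, and the median was 0.32. Of all 28146 genes tested in that fit, 14702 were positive and 13444 negative, with a median of 0.03. KIT ligand (LOC117414943) ran from 0 to 2.22 CPM, highest in low-yield 5 and 2. Its receptor KIT (LOC117409565), a receptor of the oocyte surface, held 10.2 ± 2.93 CPM in high yield (SD, n = 4) and 6.82 ± 3.34 CPM in low yield (SD, n = 8; adjusted p = 0.622, edgeR). AMH, the anti-Mullerian hormone of granulosa cells, held 3.23 ± 1.51 and 6.28 ± 3.80 CPM in row LOC117401371 (n = 4 and 8), with 14.4 CPM in low-yield 2. The other AMH row had a log2 fold change of -0.83. The BMP target ID2 (LOC117410545) held 6.91 ± 3.75 and 3.66 ± 0.947 CPM (n = 4 and 8; adjusted p = 0.576, edgeR). FSHR and the aromatase gene CYP19A1, which mark the granulosa layer, stayed under 3 CPM in every sample.

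Other oocyte genes showed little common relation with GDF9 and BMP15. The median r over 184 oocyte rows, 148 of them envelope genes, was -0.19 with GDF9 and -0.17 with BMP15 across the 12 samples. For the 36 rows outside the envelope genes the medians were -0.10 and 0.06, and over all genes 0.04 and 0.09. ZAR1 row LOC117408838 had r = 0.721 with GDF9 and 0.769 with BMP15, and 0.414 and 0.598 over the 10 samples without low-yield 2 and 5. The other ZAR1 row, LOC117406578, had r = 0.27 and 0.22. The homeobox gene NOBOX (LOC117413671) had r = -0.768 and -0.578. NOBOX was highest in high-yield 1 and 5, at 13.8 CPM, and lowest in high-yield 4 and 8, at 2.65 CPM. Of the 184 tested oocyte rows, 62 were positive and 122 negative in sign, and the median log2 fold change was -0.29. Without low-yield 2 and 5, 78 of 182 tested rows were positive and 104 negative, and the median was -0.13. In that fit 27 of the 182 rows had an unadjusted p under 0.05, against 3630 of all 28146 tested genes. Among all genes of that fit 14702 were positive and 13444 negative, with a median of 0.03. Over the 12 samples, the 36 rows outside the envelope genes divided into 19 positive and 17 negative, with a median of 0.10. Of all 184 oocyte rows, edgeR called 0, and 0 were called with 16 separate libraries. An unadjusted p under 0.05 was reached by 7 of the 184 rows, 4 of them among the 36 outside the envelope genes. Over all tested genes that share was 8.52%. The oocyte rows with the smallest p were the piRNA helicase TDRD9 (log2 fold change -1.001), an envelope ZP1 row (-1.12) and ZAR1 row LOC117408838 (0.67).

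**Figure D5:**
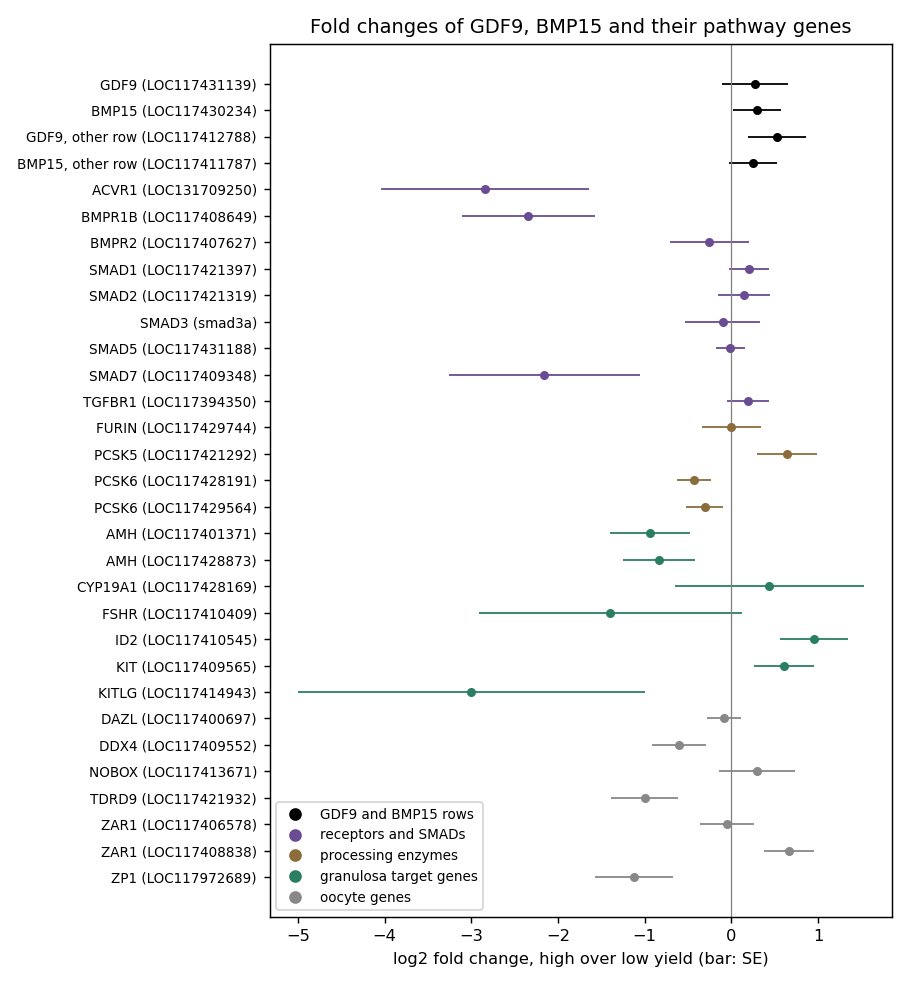
Points are log2 fold changes, high over low yield, of GDF9, BMP15 and named genes of their pathway, with bars of 1 SE; colour gives the list a gene belongs to. GDF9 and BMP15 lie at 0.27 and 0.30, the SMAD1, SMAD2, SMAD3 and SMAD5 rows lie near 0, and the widest bars belong to genes of low level such as KIT ligand, at -2.998 with an SE of 2.001.

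Summed markers of cell types other than the oocyte were higher in the libraries where GDF9 and BMP15 were lowest. Summed granulosa markers (18 rows) were 80.5 CPM in low-yield 2 and 42.9 CPM in low-yield 5, against 12.8 to 27.1 CPM in the other 10 samples. Summed endothelial markers (12 rows) were 32.2 and 90.8 CPM, against 2.73 to 20.8 CPM, and leukocyte markers (13 rows) 106 and 111 CPM, against 5.50 to 23.6 CPM. Smooth muscle markers (11 rows) summed to 301 and 2362 CPM, against 48.9 to 128 CPM, and theca markers (12 rows) to 28.8 and 23.5 CPM, against 0.949 to 6.52 CPM. No row of these lists was at 0 in all samples, and the defining markers INHA of granulosa and STAR of theca were at 0 in the median sample. Some markers did not follow their sums. A row with the symbol c12h1orf53 that is described as LHX9, a granulosa marker, was at 2.64 and 3.47 CPM in low-yield 2 and 5. Over all samples it ran from 2.46 to 15.8 CPM. CYP19A1 was at 0 and 1.02 CPM in these libraries, and STAR at 0 and 0.18 CPM. KDR of endothelium was at 5.81 and 5.11 CPM in low-yield 2 and 5, below low-yield 1 at 13.4 CPM and low-yield 3 at 6.87 CPM. The endothelial genes CDH5 and PECAM1 were highest in low-yield 5 and 2. The median r of the fibroblast rows with BMP15 was -0.76 over 12 samples and 0.26 over the 10 without these libraries. For GDF9 the same medians were -0.52 and 0.38. Between the yield groups, edgeR called 0 rows of these lists, and negative fold changes were found for 11 of 13 tested granulosa rows, 5 of 5 theca rows, 16 of 16 fibroblast rows, 11 of 11 endothelial rows, 11 of 12 leukocyte rows and 6 of 7 smooth muscle rows. The median log2 fold change ran from -1.40 for granulosa and theca to -2.16 for endothelium. Over all 30009 tested genes 14583 were positive and 15426 negative, with a median of -0.02, and 0 were called. An unadjusted p under 0.05 (edgeR) was reached by 2 of 13 granulosa, 0 of 5 theca and 4 of 16 fibroblast rows. It was also reached by 4 of 11 endothelial, 4 of 12 leukocyte and 1 of 7 smooth muscle rows, against 8.52% of all genes. All of these list rows were lower in high yield. The excess of negative signs in these lists rested on low-yield 2 and 5. Without them, negative fold changes were found for 6 of 12 tested granulosa rows, 2 of 4 theca, 7 of 16 fibroblast, 5 of 10 endothelial, 5 of 11 leukocyte and 0 of 7 smooth muscle rows, and the medians ran from -0.23 for endothelium to 0.37 for smooth muscle. Among all genes of that fit 14702 were positive and 13444 negative, with a median of 0.03. At an unadjusted p under 0.05, that fit held 3 of 12 granulosa, 0 of 4 theca and 1 of 16 fibroblast rows. It also held 3 of 10 endothelial, 1 of 11 leukocyte and 1 of 7 smooth muscle rows, against 3630 of all 28146 genes. In the other 6 low-yield libraries the summed levels overlapped those of high yield, for granulosa markers only narrowly. Granulosa markers there summed to 19.2 to 27.1 CPM, against 12.8 to 19.9 CPM in high yield. Fibroblast markers there summed to 47.8 to 141 CPM, against 45.9 to 125 CPM in high yield. The part of other cell types in the levels of the pair was not tested.

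Scaling also moved the values in these libraries. Low-yield 2 had a scaling factor of 1.44 and low-yield 5 of 0.82, against 0.828 to 1.14 in the others. Scaled by library size alone, GDF9 was 8.34 CPM in low-yield 2 and 4.77 CPM in low-yield 5, and BMP15 was 108 and 50.9 CPM. High-yield 3 and 7 had scaling factors of 0.837 and 0.828. Their BMP15 was 164 and 176.6 CPM by library size alone, against 196 and 213.5 CPM after scaling.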

How the data were processed

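Per the file headers, the authors deposited counts and FPKM for each gene in each library. Adapters were trimmed with cutadapt 1.9, per the submitters' processing notes. Aligner, counting program, use of strand, genome build and annotation: not given in the sources used here. No positions are printed. For a given gene, deposited counts and FPKM kept a near-fixed ratio, and the counts may come from coverage.

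Counts were tested with edgeR 4.0.16 (filterByExpr, trimmed mean of M values, quasi-likelihood test, two-sided, Benjamini-Hochberg adjustment over all 30009 tested genes, threshold 0.05). Near-identical high-yield libraries (rho above 0.98) were summed, which gave 4 samples against 8. CPM of a pair is the mean of its libraries. Separate fish are labelled, but the near identity is not explained, so p-values measure the spread between these samples. Ratios and shares used FPKM and exact permutation tests over all splits of 4 against 8. Correlations used log2 CPM with a prior count of 2 and 1e+05 resamples, or every ordering within low yield.

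With 224 to 1193 counts for GDF9 and 2393 to 10749 for BMP15, Poisson error would be 2.90 to 6.68% and 0.965 to 2.04% per library, counting error only.

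Named genes were both rows of the pair, for each the 6 genes of largest and 4 of smallest r, the 3 smallest p of each of 4 lists, and a set of pathway, granulosa and oocyte genes whether or not they passed. FIGLA, SOHLH1 and LHX8 matched no row, and 1 of the 6 genes of largest r with GDF9 is not reported here. Rows were matched by symbol or protein description, and additional wordings were added after the table was seen. The members, lists and tests were chosen with earlier results of these data known. Alternatives were DESeq2 1.42.0, limma 3.58.1 on log2(FPKM + 1) and log2(FPKM + 0.1), other scalings and filters, 16 separate libraries, a replicate block and leaving out samples. Counts of list rows without low-yield 2 and 5 were added after the data were seen. The fit was also run on simulated data, with the same dispersion for nearly all genes and no outlying samples, unlike these data. Its outcome is not reported here. Software was R 4.3.3, scipy 1.17.1, numpy 2.4.6, Python 3.11.15, matplotlib 3.10.9 and pandas 2.3.3.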

Additional observations from a re-analysis of the deposited data

Results flagged for a closer look

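Each sample of 18 groups of values was compared with the spread of its group by Dixon's ratio, which chance passes in about 1 of 20 groups. A total of 5 values stood apart. The other GDF9 row (LOC117412788) stood at 16.7 CPM in high-yield 4 and 8, where the nearest high-yield sample had 11.4 CPM. Low-yield 8 was close to it, at 16.4 CPM. The log2 ratio of GDF9 to BMP15 was -2.19 in the same sample, where the nearest high-yield sample was at -3.21; low-yield 8 and 1 stood at -2.34 and -2.59. In low-yield 5 the row LOC117431139 gave 57.6% of GDF9 FPKM, against 65.5% in the nearest low-yield library. The share was lower still in high-yield 1 and 5, at 49.4% and 52.55%, and was 58.6% and 58.7% in high-yield 2 and 6. Relative to the oocyte list, low-yield 5 was also far below the other low-yield libraries for GDF9, at -5.40 on the log2 scale with the nearest of them at -3.58. The lowest high-yield sample was at -3.69. For BMP15 low-yield 5 was at -1.99, with the nearest low-yield library at 0.05. Relative to the 36 oocyte rows outside the envelope genes, low-yield 5 and 2 lay close together for GDF9, at -3.54 and -3.51. On that scale BMP15 was at -0.13 in low-yield 5 and 0.18 in low-yield 2. Low-yield 5 had the highest summed levels of fibroblast, endothelial, leukocyte and smooth muscle markers, and their part in these values was not tested.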

How the results depend on the processing

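The log2 fold change of BMP15 stayed positive and did not pass under the alternatives run, from 0.08 without low-yield 2 and 5 to 0.40 with 1 sample left out. For GDF9 it lay between 0.03 and 0.38 under the settings that kept all samples or left out low-yield 2 and 5, and between -0.10 and 0.47 with 1 sample left out, where the value without high-yield 4 and 8 turned negative. With the replicate block over 16 libraries, the log2 fold change was 0.25 for GDF9 (adjusted p = 0.623, edgeR) and 0.31 for BMP15 (adjusted p = 0.379, edgeR), and 0 genes were called, with 4627 at an unadjusted p under 0.05. Replicate numbers did not pair the samples: deviations of libraries with the same number had correlations from -0.22 to 0.443, and 3 of 8 high-yield libraries correlated best with their own number. The number of genes called was 0 in the main comparison, 16 with 16 separate libraries and 117 with DESeq2, and 0 with each sample left out. The median log2 ratio of GDF9 to BMP15 was -3.07 per length and -3.55 as a ratio of counts, since the BMP15 row is longer by a factor of 1.39. The ratio difference between groups was 0.0735 with both rows summed and ran from -0.341 to 0.0575 with 1 sample left out. It was positive without high-yield 1 and 5 (0.0575), high-yield 3 and 7 (0.0165) or low-yield 8 (0.0187). The correlation of GDF9 with BMP15 was 0.455 without low-yield 2 and 5 and between 0.743 and 0.849 with 1 sample left out. GDF9 relative to the oocyte list was -0.0896 without low-yield 2 and 5 and from -0.15 to 0.55 with 1 sample left out, turning negative without high-yield 4 and 8. The same difference for BMP15 was 0.0212 without low-yield 2 and 5 and ran from 0.0748 to 0.52 with 1 sample left out. The causes of these shifts were not tested. With 4 samples against 8, the interval of GDF9 includes more than a doubling as well as a fall.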

Other observations

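For several genes, r with GDF9 or BMP15 depended on whether low-yield 2 and 5 were included. SMAD3 (smad3a) had r = 0.199 with GDF9 over 12 samples and 0.943 over the 10 without these libraries. SMAD7 (LOC117409348) had r = -0.432 over 12 samples and 0.763 over 10. For ACVR1 (LOC131709250) r with BMP15 was -0.908 over 12 samples and -0.243 over 10. The oocyte gene NOBOX (LOC117413671) moved less, with r = -0.768 with GDF9 over 12 samples and -0.844 over 10. These rows were picked after their values were seen, from 29 receptor and SMAD rows and 184 oocyte rows, so no test is given.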
